A study of Mus musculus with 66 samples.

Results

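The genes described here are 57 of the 11513 genes measured in a time course of Myc activation in mouse fibroblasts. They were taken by symbol, with patterns for families such as Nop, Utp, Rrp, Nol and Tsr and with named factors such as Ncl, Npm1, Fbl and Dkc1. The rule itself uses no measured value, though it was written with earlier results of these data known. By their known roles 4 are proteins of box C/D snoRNPs and 4 of box H/ACA snoRNPs. A further 21 act in the small subunit processome, 4 in maturation of the pre-40S particle and 15 in assembly of the pre-60S particle. Another 4 are abundant nucleolar proteins, and 5 are other matched symbols (Nol3, Nol4, Nol4l, Nol7 and Rrp8). Of these Nol3 is known as an apoptosis repressor rather than a ribosome factor.

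A ribosome is built in the nucleolus, where RNA polymerase I transcribes a long precursor of ribosomal RNA. The U3 snoRNP, Utp and Imp proteins and some of the Nop and Rrp proteins assemble on this precursor as the small subunit processome. There the RNA of the 40S subunit is cut out, while box C/D and box H/ACA snoRNPs place methyl groups and pseudouridines. Other factors, among them the PeBoW complex of Pes1, Bop1 and Wdr12, assemble the 60S subunit. The genes of these factors are transcribed by RNA polymerase II, and they are classical targets of the transcription factor Myc.

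The cells were 3T9-MycER fibroblasts, mouse embryonic fibroblasts of day E13.5 with the genotype c-mycflox/flox that had been infected in vitro with pBabe bleomycin MycER, a Myc protein fused to the hormone-binding part of the oestrogen receptor. All groups carry the floxed alleles and the construct. OHT (4-hydroxytamoxifen, the ligand that activates MycER) was given at 400 nM for 10, 20 or 30 min or 1, 1.5, 2, 4, 8, 12 or 16 h. Cells at 0 min were the control of every time, and no untreated time course is among the samples. Each of the 11 times had 3 libraries of newly made RNA and 3 of total RNA, which makes 66. New RNA was labelled with 300 µM 4sU (4-thiouridine) for 10 min, biotinylated and bound to streptavidin beads. Exon and intron values were kept apart, so that 4 tables of values resulted: labelled introns, labelled exons, total introns and total exons. No label ties a replicate number to a culture of its own. The p-values therefore reflect only how far these libraries spread, and that spread may be technical.

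All 57 members were listed and passed the filter on low values in all 4 tables. In units of 1e6, a library's deposited values added up to between 46.5 and 52.72 in total exons, 31.28 and 39.26 in labelled introns, 11.62 and 14.12 in labelled exons, and 10.65 and 13.01 in total introns. These values are rescaled, so the read depth is unknown. No spike-in is described, so every change is stated against the typical gene in the same library. In bulk RNA, fewer cells of a type and less RNA per cell cannot be told apart. Of 12 fibroblast markers 11 were listed, with a summed level of 5186 to 5632 RPKM (reads scaled by gene length and library size) in total exons at 0 min and 3114 to 3170 at 16 h, when 9 of the 11 had fallen by limma. Of the markers of other cell types, none of the epithelial, skeletal muscle or pluripotent lists was among the genes of the tables. Blood cell markers (Cd68, Csf1r and Ptprc) summed to 2.64 to 2.89 RPKM at 0 min and 4.38 to 4.55 at 16 h, and the endothelial marker Pecam1 to 0.0292 to 0.0583 and 0.102 to 0.146. The part of these shifts in the results below was not tested.

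Before OHT the members covered a wide range of levels per length in total exons. Npm1, which encodes the nucleolar chaperone nucleophosmin, was highest at 1627 ± 136 RPKM (mean ± SD, n = 3). It has many processed pseudogene copies, and how the authors' counting split reads among them is not given in the sources used here. It was followed by Nop56 at 239.7 ± 7.51 RPKM and Nhp2l1 at 235 ± 17.6, whose libraries overlapped, and then by Nhp2 at 184 ± 20.4 and Nop58 at 159.7 ± 17.5, which also overlapped. Most members lay between the 118 ± 4.51 RPKM of Nop2 and the 10 ± 0.557 of Nol12. The symbols Nol4, Nol3 and Nol4l were far lower, at 1.23 ± 0.0777, 0.69 ± 0.0764 and 0.121 ± 0.0137 RPKM. In labelled exons the order began with Npm1 at 546 ± 16.3 RPKM, Ncl at 107 ± 5.57 and Nop56 at 70.6 ± 4.36, with no overlap between them. Set against the typical gene, the members' labelled level was low for their total level: the log2 ratio of labelled to total RPKM at 0 min had a median of -0.19, relative to the median gene, and was above that gene for 16 of 57. Nucleolin (Ncl) and the H/ACA protein gene Gar1 were among the exceptions, at 1.38 and 1.32.

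Labelled intron RNA of most members rose within 20 min of OHT, and exon levels followed over hours. In labelled introns, the values closest to transcription itself, 41 of 57 members rose and 0 fell at 20 min (limma, adjusted p under 0.05), where 16.7% of all 11506 genes tested were called up and 13.3% down. At an unadjusted p under 0.05, 0 members were down. The members' median log2 change was 0.42, a 1.34-fold level, against a median of -0.01 over all genes. In labelled exons, which also hold spliced RNA made during the 10 min of labelling, 12 rose at 20 min (background 3.32%), 36 at 1 h (background 13.53%) and 50 at 8 h (background 22.3%). In total exons, the steady-state RNA, 18 had risen by 1 h (background 5.23%), 42 by 4 h (background 19.7%) and 52 by 8 h (background 25.0%).

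The first calls came at 10 min, when 4 members rose in labelled introns (background 0.530%): Rrp9, Imp4, Nhp2l1 and Bop1. This count was 2 with RPKM plus 0.1 and 1 without any 1 of labelled replicate 3 at 0 min or replicate 3 at 10 min. At that time limma called 0 members and 0% of genes up in labelled exons, with 2 members up at an unadjusted p under 0.05. In total exons, 0 members were called at 30 min (background 0.331% up and 0.0348% down), with 2 up and 1 down at an unadjusted p under 0.05. Unspliced RNA in the total libraries moved early too: 32 members rose in total introns at 20 min (background 7.75%). The count of 12 in labelled exons at 20 min was 7 on the unscaled values, with RPKM plus 0.1 or without labelled replicate 2 at 0 min. The count of 18 in total exons at 1 h was 7 on the unscaled values, with RPKM plus 0.1 or without total replicate 3 at 0 min, 11 without total replicate 1 at 1 h and 10 without any 1 of total replicate 2 at 0 min or replicate 3 at 1 h.

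**Figure D1:**
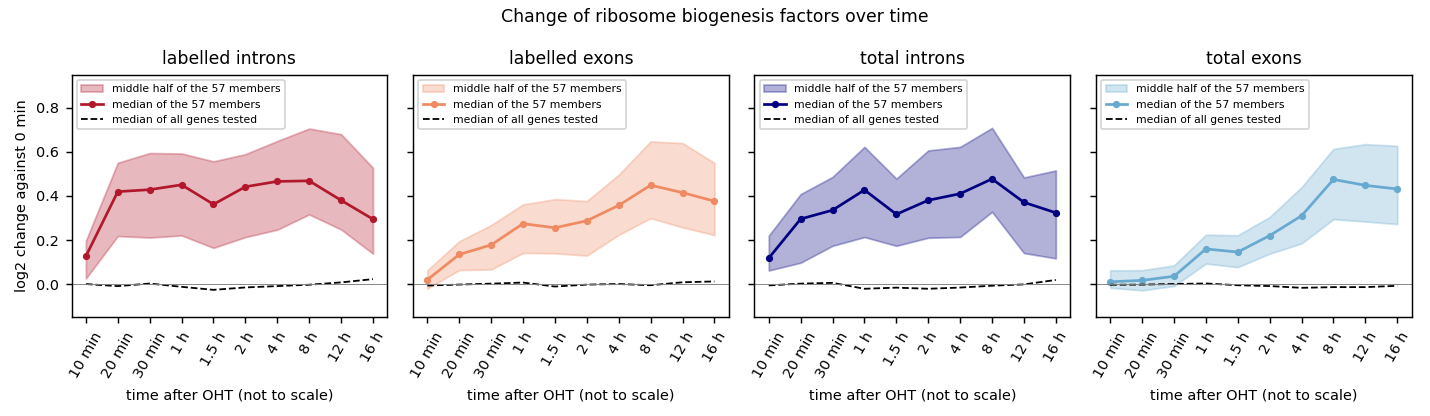
Log2 change against 0 min of the 57 members over time after OHT, 1 panel per table, with the median (coloured line), the quartiles (band) and the median of all genes tested (dashed). The members' median in labelled introns reached 0.42 at 20 min, while that in total exons was 0.16 at 1 h and 0.47 at 8 h.

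For most members the first call came in labelled introns, then in labelled exons or with them, and then in total exons. Of the 51 members called up at some time in both labelled introns and labelled exons, the first call came earlier in introns for 37, at the same time for 10 and later for 4 (Gnl3, Nol12, Nop10 and Tsr3). Rrp15 and Utp23 were called up in labelled introns but never in labelled exons, Rrp36 in labelled exons but never in labelled introns, and Nol3, Nol4 and Nol4l in neither. Another set of 51 was called up in both labelled and total exons, with labelled exons first for 36, the same time for 12 and total exons first for 3. Dkc1 was called up in labelled exons but never in total exons, Rrp15 in total exons but never in labelled exons, and Nol3, Nol4, Nol4l and Utp23 in neither. Of the 41 members first called in labelled introns by 20 min, 33 were called up there at every time from 20 min to 16 h. The same count over all genes was not made. The highest change fell at 8 or 12 h for most members in labelled exons (20 and 22 members) and total exons (23 and 18). A first call depends on the spread of a table as well as on the change, so these orders describe the calls. They were counted for the members only. Over all genes, too, more were called up at 20 min in labelled introns (16.7%) than in labelled exons (3.32%) or total exons (0.0435%). Whether the order is particular to the members was not tested.

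At the later times the calls were many in every table. At 1 h, 43 members rose and 1 fell in labelled introns (background 24.8% up and 24.4% down). At the same time 36 rose and 0 fell in labelled exons, where 9.77% of genes fell and limma found 0 members down at an unadjusted p under 0.05. At 4 h, 48 rose and 3 fell in labelled introns (background 24.8% and 24.9%), and 45 rose and 1 fell in labelled exons (background 19.5% and 18.7%). In total RNA at 4 h, 42 rose and 0 fell in introns (background 20.3% and 19.5%), and 42 rose and 0 fell in exons (background 19.5% down). Limma found 0 members down at an unadjusted p under 0.05 in either. At this time 37 members were up in all 4 tables, and the share of all genes up in all 4 was not counted.

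At 16 h, 36 members were up and 2 down in labelled introns (background 25.1% up and 23.0% down), 45 were up and 1 down in labelled exons (background 22.5% and 21.7%), and 50 were up and 2 down in total exons (background 26.9% and 29.0%). The median fold in total exons was 1.24 at 4 h and 1.35 at 16 h. The highest was 2.95 at 16 h, in Rrp9. The members that fell against 0 min at 1 h, 4 h or 16 h in these 3 tables were Nol3, Nol4 and Nol4l, none of them in the role groups that hold the other 52 members. The counts of 1 to 3 members down moved with single libraries. The count at 1 h in labelled introns was 2 with RPKM plus 0.1 and 0 without any 1 of labelled replicate 1 at 1 h, replicate 2 at 0 min, replicate 2 at 1 h or replicate 3 at 0 min. The count at 4 h was 1 without labelled replicate 2 at 4 h, and that at 16 h was 1 without labelled replicate 3 at 16 h. In labelled exons the count down at 4 h was 0 with a minimum value of 50 or without any 1 of labelled replicate 1 at 4 h, replicate 2 at 0 min, replicate 2 at 4 h or replicate 3 at 4 h, and at 16 h it was 0 with a minimum value of 50 and 2 without any 1 of labelled replicate 1 at 0 min or replicate 2 at 16 h. In total exons at 16 h it was 1 with library sums as the scale or without any 1 of total replicate 1 at 0 min, replicate 2 at 16 h, replicate 3 at 0 min or replicate 3 at 16 h. In total introns at 4 h the count of 0 became 1 with library sums as the scale or with only the groups compared in the fit.

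**Figure D2:**
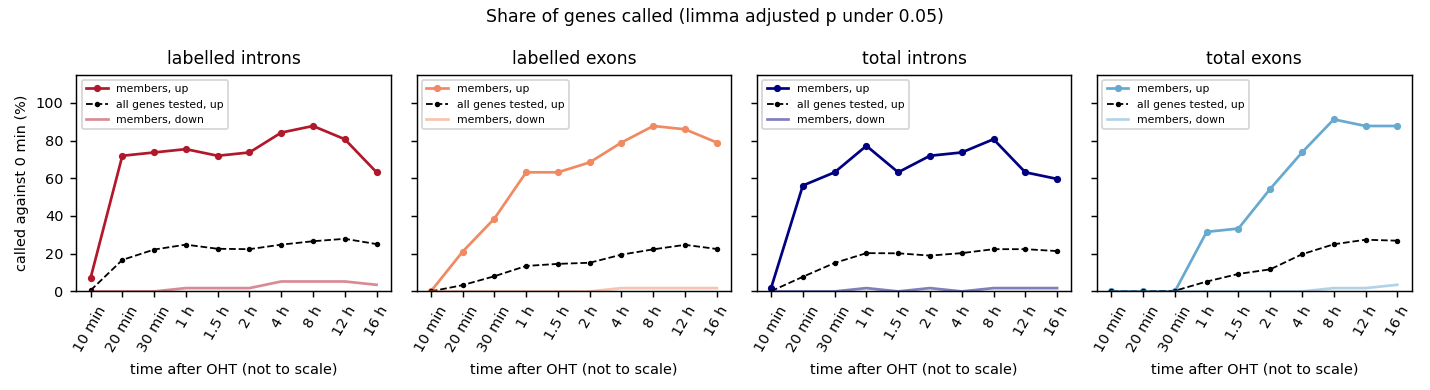
Share of genes called against 0 min (limma adjusted p under 0.05) by time after OHT in each table, for the members (coloured, up dark and down pale) and for all genes tested (dashed, up). At 20 min the labelled introns hold 41 of 57 members up against 16.7% of all genes, and total exons reach 52 members at 8 h against 25.0%.

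At each time the change in labelled exons was tested against that in total exons, in 1 fit over all 66 libraries. This compares the sizes of 2 changes, and no delay was estimated. At 20 min 3 members (Rrp9, Nop9 and Utp18) had a larger change in labelled RNA (background 0.532%), at 30 min 5 (those and Bop1 and Nol9, background 1.67%) and at 1 h 3 (Rrp9, Nop9 and Bop1, background 0.890%). For Rrp9, the U3-specific snoRNP protein, the labelled change exceeded the total change by 0.80 ± 0.11 (limma adjusted p = 4.48e-06) at 30 min. For Nop9, an RNA-binding protein needed for 18S rRNA, it did so by 0.51 ± 0.09 (limma adjusted p = 0.000252). The count at 30 min was 3 with only the groups compared in the fit and 8 without labelled replicate 1 at 0 min. From 2 h on no member passed this test in either direction by limma. At an unadjusted p under 0.05, 6 were up and 0 down at 2 h, 1 and 1 at 8 h, and 6 and 4 at 12 h. At 4 h limma called 0 members, against 0.0523% of genes up and 0.00872% down, with 6 members up and 0 down at an unadjusted p under 0.05. At 16 h it called 0 against 0.183% up and 0.148% down, with 2 members up and 8 down at an unadjusted p under 0.05.

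Within labelled RNA, the ratio of intron to exon values rose early for many members. At 20 min it rose for 28 members and fell for 1, Nol4l (background 7.01% up and 2.45% down), with log2 changes of 1.03 ± 0.11 for Rrp9, 1.03 ± 0.09 for Bop1 and 0.62 ± 0.11 for Nop16. At 1 h it rose for 16 (background 6.05%), and at 4 h it rose for 1, Fbl, and fell for 1, Nol4l (background 0.653% and 0.732%). These counts depended on the fit. The count of rises at 20 min was 15 on the unscaled values, 3 with only the groups compared in the fit and 16 without labelled replicate 3 at 20 min. The 1 fall at 20 min was 0 on the unscaled values, with only the groups compared in the fit or without any 1 of labelled replicate 3 at 0 min or replicate 3 at 20 min. The count at 1 h was 3 on the unscaled values, 2 with only the groups compared in the fit, 8 without any 1 of labelled replicate 1 at 0 min or replicate 1 at 1 h, 9 without any 1 of labelled replicate 2 at 1 h or replicate 3 at 1 h and 6 without labelled replicate 3 at 0 min. The 1 rise at 4 h was 2 with library sums as the scale or with a minimum value of 50 and 0 on the unscaled values, with only the groups compared in the fit or without any 1 of labelled replicate 2 at 4 h, replicate 3 at 0 min or replicate 3 at 4 h. The 1 fall was 0 on the unscaled values, with only the groups compared in the fit or without any 1 of labelled replicate 1 at 4 h, replicate 2 at 4 h or replicate 3 at 0 min.

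Myc with its partner Max is known to bind the E-box CACGTG, and promoters of members are shown here because the members moved together. RefSeq windows on GRCm38.p6, from 250 bases before to 50 bases after a gene's start, were found by Entrez number for 46 of the 57 members. CACGTG, which reads the same on both strands, was in the window of 10 of 46 members (21.7%, exact 95% Clopper-Pearson interval 10.95% to 36.36%, counting error only) and of 12.1% of the 9216 genes of the tables with a window, a share inside that interval. With CACGCG and CATGTG on both strands added, the shares were 52.2% and 37.0%. In 5 members the CACGTG lay wholly before the start. The 250 bases before the start of each are printed 5′ to 3′ on the gene's strand with CACGTG in capitals. Rrp9 is added as the member with the largest rise in total exons at 16 h, chosen after its values were seen, and no CACGTG is in these letters. Its window does hold CATGTG, from base 3 after the start, which the printed bases do not reach.
Imp4 (chr1:34439579-34439828, plus strand): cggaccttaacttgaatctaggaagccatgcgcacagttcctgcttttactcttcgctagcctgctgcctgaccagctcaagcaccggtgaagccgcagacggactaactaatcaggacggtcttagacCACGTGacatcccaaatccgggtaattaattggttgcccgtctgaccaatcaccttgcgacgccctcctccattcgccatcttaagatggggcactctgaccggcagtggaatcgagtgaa
Nop2 (chr6:125131633-125131882, plus strand): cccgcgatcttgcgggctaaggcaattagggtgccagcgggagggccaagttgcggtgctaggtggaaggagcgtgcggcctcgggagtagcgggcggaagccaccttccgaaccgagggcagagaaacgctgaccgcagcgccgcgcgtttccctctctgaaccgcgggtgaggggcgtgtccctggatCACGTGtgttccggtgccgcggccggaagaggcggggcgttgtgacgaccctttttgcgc
Utp18 (chr11:93885767-93886016, minus strand): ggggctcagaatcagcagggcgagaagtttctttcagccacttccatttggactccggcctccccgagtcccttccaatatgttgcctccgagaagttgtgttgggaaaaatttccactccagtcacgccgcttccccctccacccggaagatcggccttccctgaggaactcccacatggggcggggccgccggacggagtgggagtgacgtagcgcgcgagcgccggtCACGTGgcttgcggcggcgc
Nol11 (chr11:107189382-107189631, minus strand): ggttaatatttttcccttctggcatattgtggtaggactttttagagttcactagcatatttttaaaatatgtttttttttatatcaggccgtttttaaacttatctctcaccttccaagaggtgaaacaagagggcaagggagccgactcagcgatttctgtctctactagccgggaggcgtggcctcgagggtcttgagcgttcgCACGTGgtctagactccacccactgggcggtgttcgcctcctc
Rrp7a (chr15:83122802-83123051, minus strand): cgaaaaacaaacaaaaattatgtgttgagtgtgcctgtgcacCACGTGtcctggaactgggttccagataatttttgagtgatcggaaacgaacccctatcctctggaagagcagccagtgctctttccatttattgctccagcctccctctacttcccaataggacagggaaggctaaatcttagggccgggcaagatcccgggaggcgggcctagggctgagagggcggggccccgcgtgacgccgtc
Rrp9 (chr9:106477059-106477308, plus strand): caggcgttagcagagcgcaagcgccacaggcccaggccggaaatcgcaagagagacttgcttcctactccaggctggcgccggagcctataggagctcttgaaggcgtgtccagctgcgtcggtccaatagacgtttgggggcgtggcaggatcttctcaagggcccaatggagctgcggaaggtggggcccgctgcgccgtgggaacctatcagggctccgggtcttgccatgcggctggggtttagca
The motif began 121 bases before the start in Imp4, 60 in Nop2, 20 in Utp18, 43 in Nol11 and 208 in Rrp7a. The 10 members with CACGTG in the window had a median log2 change of 0.37 in labelled introns at 20 min, and the 36 without it had 0.42. At 4 h in labelled introns the medians were 0.37 and 0.56, and at 16 h in total exons 0.41 and 0.47. A match of letters is a description and not a binding site.

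The small subunit processome holds Rrp9, the member with the largest rise in both exon tables at 4 h and 16 h. Of its 21 members 18 rose in labelled introns at 20 min (background 16.7%). In labelled exons 16 rose at 1 h (background 13.53%), 19 at 4 h (19.5%) and 18 at 16 h (22.5%). In total exons 20 rose at both 4 h (background 19.7%) and 16 h (26.9%). None of the 21 fell in these comparisons by limma, where 9.77% to 29.0% of all genes fell. No alternative moved these counts of rises by over 1.5 times.

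Rrp9 (Entrez 27966, chromosome 9 from 106378294 to 106387755, plus strand, mm9), which encodes the protein that binds the B/C motif of U3 snoRNA, had the largest rise of the members in labelled introns at every time and in both exon tables at 4 h and 16 h. Its scaled values in labelled introns were 608, 455 and 501 at 0 min, 818, 946 and 938 at 10 min and 1635, 1566 and 1758 at 20 min. No 2 of these groups overlapped, and the rise was already 0.79 ± 0.10 (limma adjusted p = 1.98e-05) on the log2 scale at 10 min and 1.67 ± 0.10 (limma adjusted p = 4.2e-14) at 20 min. In labelled exons Rrp9 had 1046, 845 and 948 at 0 min, 2078, 1862 and 1757 at 1 h, 2556, 2777 and 2681 at 4 h and 2632, 2548 and 2924 at 16 h. All later libraries lay above those at 0 min, with log2 changes of 1.01 ± 0.08 (limma adjusted p = 2.75e-11), 1.501 ± 0.08 (limma adjusted p = 5.75e-16) and 1.52 ± 0.08 (limma adjusted p = 1.63e-16). In total exons the values were 6661, 5806 and 6002 at 0 min, 15002, 13292 and 13498 at 4 h and 17900, 17242 and 19269 at 16 h, again with no overlap. Rrp9 rose there by 1.56 ± 0.07 (limma adjusted p = 6.63e-17) or 2.95-fold by 16 h. Its exons overlap those of Parp3 on the opposite strand. Whether counting used strand is not given in the sources used here, so reads of the 2 genes cannot be told apart. Exon overlap on the opposite strand was found for 19 of the 53 members with a gene model, Rrp9 included, among them Bop1, Nop14, Nop56, Pes1, Wdr12, Nhp2, Dkc1, Mybbp1a, Nol3 and Rrp8.

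Ddx10 (Entrez 77591, chromosome 9 from 52906559 to 53056217, minus strand, mm9), a helicase of the processome, was called up in both exon tables. In labelled exons it had 1798, 1735 and 1597 at 0 min, 3004, 2823 and 2883 at 1 h, 2994, 2365 and 2821 at 4 h and 2473, 2274 and 2738 at 16 h. Every later library was above those at 0 min, and the change was 0.76 ± 0.08 (limma adjusted p = 1.4e-08) at 1 h and 0.54 ± 0.08 (limma adjusted p = 2.19e-06) at 16 h. In total exons it went from 5536, 5229 and 5278 to 9985, 8832 and 9647 at 4 h and 9211, 9070 and 10633 at 16 h. The groups did not overlap with 0 min, and the changes were 0.83 ± 0.07 (limma adjusted p = 4.34e-10) and 0.85 ± 0.07 (limma adjusted p = 9.02e-11). Nop14 (Entrez 75416, chromosome 5 from 34981181 to 35002797, minus strand, mm9), a scaffold of the processome, was called up in total exons at every time from 1 h on: they went from 6043, 6033 and 5870 at 0 min to 10502, 11301 and 13077 at 16 h. Its groups did not overlap, and the change was 0.95 ± 0.10 (limma adjusted p = 1.58e-09).

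Imp4, a U3-associated protein, rose by 0.72 ± 0.07 (limma adjusted p = 7.55e-10) in labelled exons at 4 h and by 0.83 ± 0.08 (limma adjusted p = 3.82e-10) in total exons at 16 h. Nop9 rose by 0.67 ± 0.08 (limma adjusted p = 9.06e-09) and 0.52 ± 0.05 (limma adjusted p = 1.23e-10) in the same comparisons. Among the larger rises in total exons at 16 h were the GTPase gene Bms1, by 0.83 ± 0.05, and Heatr1, a subunit of the UtpA complex that also acts in polymerase I transcription, by 0.76 ± 0.06. At the other end stood Utp23, an assembly factor. Utp23 was never called up in labelled or total exons, with changes of 0.09 in labelled exons at 4 h (adjusted p = 0.423 by limma) and -0.14 in total exons at 16 h (adjusted p = 0.0551 by limma). Its libraries overlapped with those at 0 min in both.

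**Figure D3:**
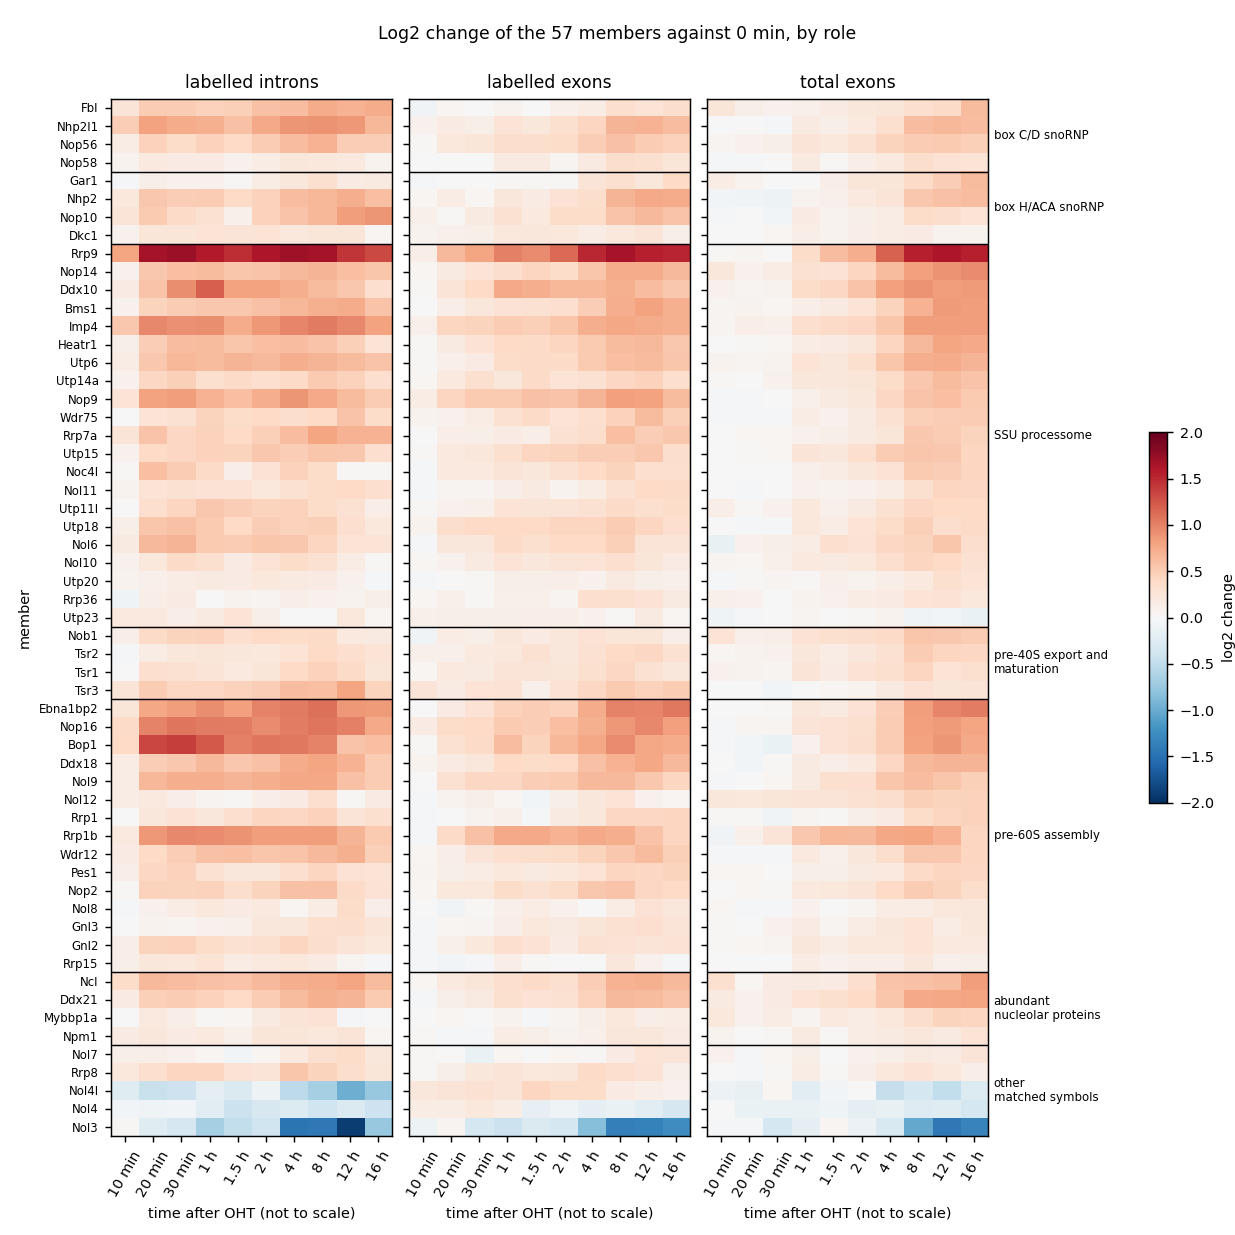
Log2 change against 0 min (colour) of the 57 members (grouped by role, within a role by the change in total exons at 16 h) at each time after OHT in labelled introns, labelled exons and total exons. Rrp9 has the darkest row, red spreads in the intron panel by 20 min and in the total exon panel mostly from 4 h on, and Nol3 and Nol4 at the bottom are blue.

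Of the 15 factors of pre-60S assembly, 12 rose in labelled introns at 20 min (background 16.7%). In labelled exons 10 rose at 1 h (background 13.53%) and 13 at 4 h (19.5%) and at 16 h (22.5%). In total exons 12 rose at 4 h (background 19.7%) and 14 at 16 h (26.9%). None of the 15 was down by limma in these comparisons, where 9.77% to 29.0% of all genes fell. No alternative moved these counts of rises by over 1.5 times. Bop1 (Entrez 12181, chromosome 15 from 76283426 to 76307699, minus strand, mm9), the central subunit of the PeBoW complex, was among the 4 first called. Its labelled introns went from 2385, 1894 and 2070 at 0 min to 2413, 2951 and 3035 at 10 min and 5091, 5376 and 5468 at 20 min, and no library at 10 or 20 min was as low as any at 0 min. The changes were 0.40 ± 0.08 (limma adjusted p = 0.00871) and 1.33 ± 0.08 (limma adjusted p = 4.2e-14). Labelled exons had 1565, 1359 and 1663 at 0 min, 2790, 2670 and 2410 at 4 h and 2486, 2414 and 2722 at 16 h, and total exons had 9929, 9072 and 9029 at 0 min, 13909, 12576 and 13256 at 4 h and 15794, 15310 and 16146 at 16 h. Neither set overlapped with 0 min. Bop1 rose by 0.78 ± 0.09 (limma adjusted p = 4.21e-09) in labelled exons at 4 h and by 0.75 ± 0.05 (limma adjusted p = 2.11e-12) in total exons at 16 h.

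Its partners had smaller changes, and the differences between the 3 were not tested. Pes1 had 12931, 12142 and 12133 in total exons at 0 min and 16538, 15735 and 17182 at 16 h, a rise of 0.41 ± 0.08 (limma adjusted p = 3.55e-05) without overlap. In labelled exons Pes1 went from 2340, 1970 and 2166 to 2625, 2612 and 2580 at 4 h and 2922, 2738 and 3138 at 16 h, changes of 0.27 ± 0.07 (limma adjusted p = 0.00133) and 0.44 ± 0.07 (limma adjusted p = 1.27e-06). The first of these calls ended with RPKM plus 0.1 (0.0506). Wdr12 went from 1706, 1738 and 1538 to 2376, 2261 and 2125 in labelled exons at 4 h, a rise of 0.44 ± 0.07 (limma adjusted p = 3.3e-06). Its total exons went from 6381, 5663 and 5861 to 7842, 7848 and 8282 at 16 h, a rise of 0.42 ± 0.07 (limma adjusted p = 4.56e-06), and neither pair of groups overlapped.

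Ebna1bp2 (Entrez 69072, chromosome 4 from 118293404 to 118300381, plus strand, mm9), the mammalian counterpart of yeast Ebp2, gained through to 16 h. Labelled exons had 1735, 1576 and 1666 at 0 min, 2843, 2783 and 2702 at 4 h and 3506, 3086 and 3760 at 16 h, and the 3 groups did not overlap. The rise at 16 h was 1.05 ± 0.07 (limma adjusted p = 1.01e-14). Total exons went from 8444, 7421 and 7991 to 15595, 15868 and 16783, a rise of 1.02 ± 0.07 (limma adjusted p = 3.48e-13) or 2.02-fold. Nop16, a pre-60S factor, had 1030, 890.1 and 882 in labelled exons at 0 min and 1624, 1576 and 1735 at 16 h, with no overlap and a rise of 0.82 ± 0.08 (limma adjusted p = 1.24e-10). Its total exons went from 5331, 4711 and 5100 to 8970, 8180 and 8908, a rise of 0.78 ± 0.08.

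Rrp1b (Entrez 72462, chromosome 17 from 32173045 to 32199810, plus strand, mm9), a nucleolar protein that also binds protein phosphatase 1, took another course. Labelled exons went from 2356, 1918 and 1910 at 0 min to 3665, 3243 and 3518 at 1 h, 3628, 3329 and 3470 at 4 h and 2758, 2658 and 2876 at 16 h. All later libraries were above 0 min, and those at 16 h were all below those at 1 h and 4 h. The rise was 0.76 ± 0.08 (limma adjusted p = 2.2e-09) at 1 h, 0.76 ± 0.08 (limma adjusted p = 8.41e-10) at 4 h and 0.43 ± 0.08 (limma adjusted p = 2.04e-05) at 16 h. Total exons went from 5529, 5056 and 5148 to 9812, 8177 and 9082 at 4 h, a rise of 0.78 ± 0.08 (limma adjusted p = 2.12e-09), and to 7480, 6566 and 7212 at 16 h. Nol9, the polynucleotide kinase that acts on the internal spacer of pre-rRNA, rose by 0.65 ± 0.06 (limma adjusted p = 4.39e-10) in labelled exons at 4 h, and Nop2, a methyltransferase of 28S rRNA, by 0.53 ± 0.05 (limma adjusted p = 7.8e-10). In total exons at 16 h they rose by 0.47 ± 0.07 and 0.36 ± 0.06. Rrp15 was never called up in labelled exons, with changes of 0.01 at 4 h and -0.02 at 16 h (adjusted p = 0.95 and 0.894 by limma) and overlapping libraries.

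The 4 core proteins of box C/D snoRNPs were first called up in total exons at 1 h for Nop56, 2 h for Nhp2l1 and 8 h for Fbl and Nop58. A first call also depends on the spread of a gene's values, and differences between the 4 genes were not tested. In labelled introns 3 rose at 20 min (background 16.7%). In labelled exons 2 rose at 1 h (background 13.53%) and at 4 h (19.5%) and 4 at 16 h (22.5%). In total exons 2 rose at 4 h (background 19.7%) and 4 at 16 h (26.9%). The count in labelled exons at 1 h was 1 on the unscaled values or with RPKM plus 0.1. Nop56, a scaffold of the particle, had 6525, 6209 and 6405 in labelled exons at 0 min and 9024, 9189 and 8776 at 4 h, a rise of 0.50 ± 0.06 (limma adjusted p = 1.88e-08) with no overlap. Its total exons went from 28771, 28402 and 28220 to 38503, 40497 and 39965 at 16 h, a rise of 0.48 ± 0.05 (limma adjusted p = 2.89e-09). Fbl, the methyltransferase fibrillarin, had 2127, 2142 and 2379 in labelled exons at 0 min, 2451, 2471 and 2447 at 4 h and 2737, 2967 and 2781 at 16 h. The libraries at 4 h were all above 0 min but the change of 0.15 ± 0.06 did not pass the test (limma adjusted p = 0.0534), and at 16 h Fbl rose by 0.35 ± 0.06 (limma adjusted p = 1.47e-05). In total exons Fbl went from 5054, 4942 and 5508 to 6736, 7954 and 9609, a rise of 0.63 ± 0.13 (limma adjusted p = 0.00012) with a wide spread between the libraries at 16 h. Nhp2l1, which binds the kink-turn of these RNAs and of U4 snRNA, rose by 0.43 ± 0.08 (limma adjusted p = 3.22e-05) in labelled exons at 4 h, and Nop58 had 0.17 ± 0.08 there without passing the test (limma adjusted p = 0.0993).

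Of the 4 box H/ACA proteins, 2 rose in labelled introns at 20 min (background 16.7%). In labelled exons 1 rose at 1 h (background 13.53%), 4 at 4 h (19.5%) and 3 at 16 h (22.5%). In total exons 1 rose at 4 h (background 19.7%) and 3 at 16 h (26.9%). Among 4 genes a count of 1 is near these shares, so it is not read as a result about the role. These small counts moved with the fit. That in labelled introns at 20 min was 1 with library sums as the scale, on the unscaled values, with RPKM plus 0.1, with only the groups compared in the fit or without any 1 of labelled replicate 1 at 0 min, replicate 3 at 0 min or replicate 3 at 20 min. In labelled exons the count at 1 h was 0 on the unscaled values or without labelled replicate 3 at 0 min, 3 with the replicate block or with only the groups compared in the fit and 2 without labelled replicate 1 at 0 min, and that at 4 h was 1 on the unscaled values or with RPKM plus 0.1 and 2 without labelled replicate 1 at 4 h. In total exons at 4 h it was 2 with the replicate block and 3 without total replicate 2 at 4 h. The pseudouridine synthase gene Dkc1 had small changes. Its labelled exons were 3633, 3750 and 3397 at 0 min, 4173, 4076 and 4195 at 1 h, 4044, 3884 and 4006 at 4 h and 3761, 3849 and 4135 at 16 h. The groups at 1 h and 4 h lay above 0 min, with changes of 0.21 ± 0.06 (limma adjusted p = 0.00775) and 0.15 ± 0.06 (limma adjusted p = 0.043), and the group at 16 h had 0.12 ± 0.06 (limma adjusted p = 0.0841). The call at 1 h ended on the unscaled values (0.0514) and without labelled replicate 3 at 0 min (0.0666). The call at 4 h ended on the unscaled values (0.34), with RPKM plus 0.1 (0.309), with only the groups compared in the fit (0.0961), without labelled replicate 1 at 0 min (0.0638), without labelled replicate 1 at 4 h (0.113), without labelled replicate 2 at 4 h (0.0508), without labelled replicate 3 at 0 min (0.213) and without labelled replicate 3 at 4 h (0.097). Dkc1 was never called up in total exons, which were 13535, 12183 and 12803 at 0 min and 13431, 12913 and 14115 at 16 h, overlapping groups with a change of 0.07 ± 0.07 (limma adjusted p = 0.399). Nhp2 and Nop10, the small core proteins, rose by 0.36 ± 0.09 (limma adjusted p = 0.00151) and 0.37 ± 0.11 (limma adjusted p = 0.00938) in labelled exons at 4 h. The call of Nop10 ended on the unscaled values (0.0532) and with RPKM plus 0.1 (0.0578). Gar1 had 0.26 ± 0.08 (limma adjusted p = 0.0124) there, a call that ended on the unscaled values (0.127), with RPKM plus 0.1 (0.126), without labelled replicate 1 at 4 h (0.0901) and without labelled replicate 2 at 0 min (0.0932). In total exons at 16 h Gar1 rose by 0.63 ± 0.14 (limma adjusted p = 0.000325), with libraries of 1535, 1682 and 2230, and Nhp2 by 0.62 ± 0.06 (limma adjusted p = 3.94e-10).

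The 4 abundant nucleolar proteins all rose in total exons by 16 h (background 26.9%), 2 of them by 4 h (19.7%). In labelled introns 3 rose at 20 min (background 16.7%). The count in total exons at 4 h was 1 without total replicate 2 at 0 min. Ncl encodes nucleolin, which binds nascent pre-rRNA. Its labelled exons went from 43348, 40744 and 38712 at 0 min to 53499, 47543 and 54188 at 1 h, 59037, 55662 and 58404 at 4 h and 67132, 55968 and 69128 at 16 h, with every later library above 0 min. It rose by 0.34 ± 0.09 (limma adjusted p = 0.00751) at 1 h, a call that ended on the unscaled values (0.0511) and with RPKM plus 0.1 (0.0545). It rose by 0.50 ± 0.09 (limma adjusted p = 6.42e-05) at 4 h and by 0.64 ± 0.09 at 16 h. Total exons of Ncl spread widely, from 54288, 48492 and 51762 at 0 min to 76693, 80042 and 72826 at 4 h and 65913, 94196 and 126077 at 16 h. Both later groups were above 0 min, and the changes were 0.57 ± 0.20 (limma adjusted p = 0.0204) and 0.84 ± 0.20 (limma adjusted p = 0.000544). The call at 4 h ended without total replicate 2 at 0 min (0.0664) and without total replicate 2 at 4 h (0.0586).

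Npm1, the most abundant member, moved little on this scale. Labelled exons were 42603, 42360 and 40901 at 0 min, 46992, 41267 and 46781 at 4 h and 46774, 44211 and 50693 at 16 h. The groups at 0 min and 4 h overlapped and those at 0 min and 16 h did not, with changes of 0.10 ± 0.09 (limma adjusted p = 0.426) and 0.17 ± 0.09 (limma adjusted p = 0.139). Total exons went from 175517, 155709 and 160667 to 190112, 202563 and 200152 at 16 h, without overlap and with a rise of 0.27 ± 0.09 (limma adjusted p = 0.00793). Ddx21, a helicase that acts in both polymerase I and polymerase II transcription, rose by 0.47 ± 0.07 (limma adjusted p = 2.37e-06) in labelled exons at 4 h and by 0.78 ± 0.09 (limma adjusted p = 2.89e-08) in total exons at 16 h. Mybbp1a, a Myb-binding nucleolar protein, had 0.12 ± 0.06 (limma adjusted p = 0.109) in labelled exons at 4 h and rose by 0.43 ± 0.10 (limma adjusted p = 0.000899) in total exons at 16 h. Total replicate 3 was the highest library at 16 h for Mybbp1a, Ncl, Fbl, Gar1 and Nop14. It was also the highest for each of them at 10 min (for Ncl 107710 against 52112 and 47149), when no member was called in total exons. None of their calls at 16 h ended without that library, and the source of the pattern was not tested.

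**Figure D4:**
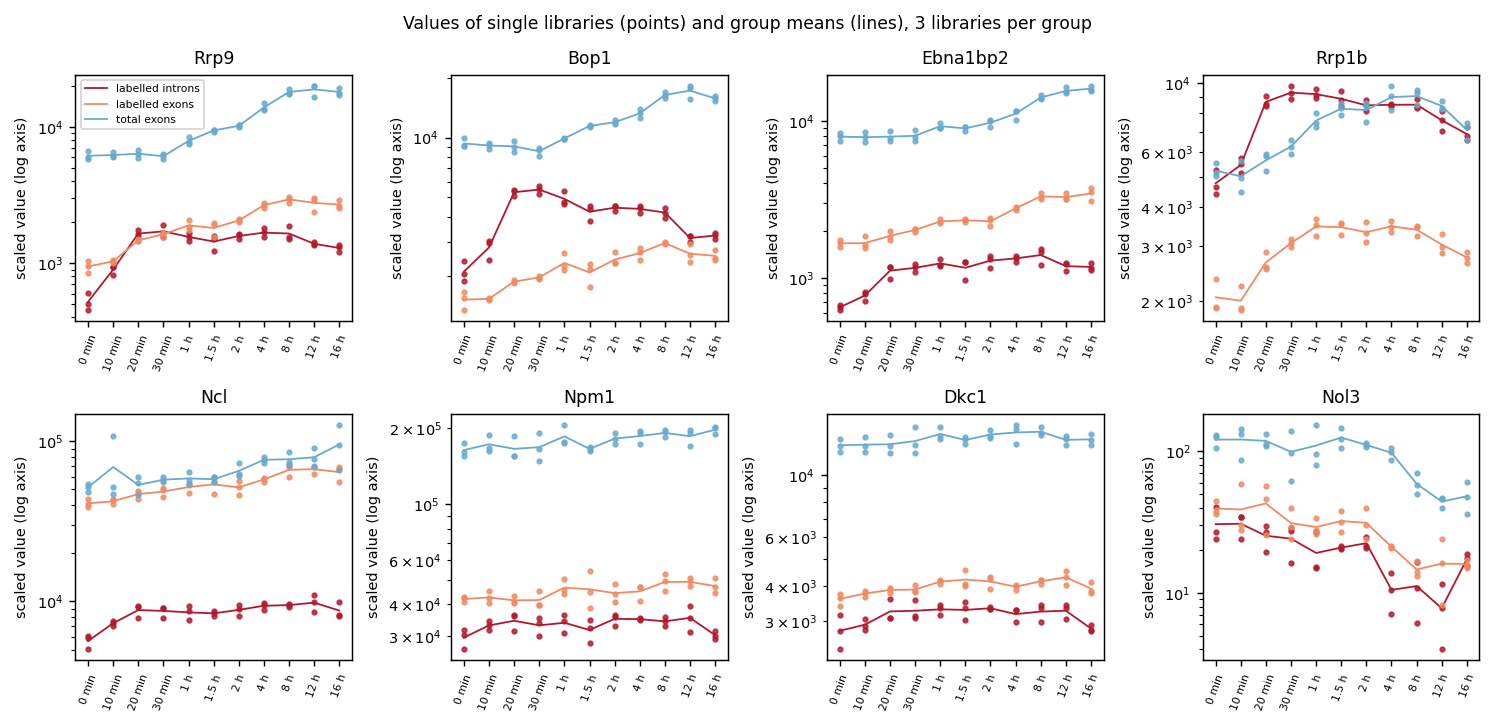
Scaled values (log axis) of 8 members in every library (points) and the group means (lines), 3 libraries per time, in labelled introns, labelled exons and total exons. Rrp9, Bop1, Ebna1bp2 and Rrp1b climb in introns within 20 min, Npm1 and Dkc1 stay nearly level, Ncl has a wide spread in total exons at 10 min and 16 h, and Nol3 falls.

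The 4 factors of pre-40S maturation were called up at 4 h in both exon tables, though in total exons the calls of Nob1 and Tsr3 did not hold under every alternative. In labelled introns 2 rose at 20 min (background 16.7%). In labelled exons all 4 rose at 1 h (background 13.53%) and at 4 h (19.5%) and 3 at 16 h (22.5%). In total exons all 4 rose at 4 h (background 19.7%) and at 16 h (26.9%). The count in labelled exons at 1 h was 2 with library sums as the scale, with only the groups compared in the fit or without any 1 of labelled replicate 2 at 0 min, replicate 2 at 1 h or replicate 3 at 0 min and 1 on the unscaled values, with RPKM plus 0.1 or without labelled replicate 1 at 1 h. The call at 1 h ended in 5 of 14 alternatives for Tsr1, in 7 of 14 for Tsr2 and in 7 of 14 for Tsr3. The count in total exons at 4 h was 2 without total replicate 1 at 4 h, where the calls of Nob1 and Tsr3 ended. In all, the call of Tsr3 there ended in 8 of 14 alternatives (limma adjusted p from 0.0521 to 0.162) and that of Nob1 in 2. At 4 h in labelled exons Nob1, the nuclease that cuts the end of 18S rRNA, rose by 0.29 ± 0.06, Tsr1 by 0.33 ± 0.07, Tsr2, an escort of a ribosomal protein, by 0.31 ± 0.07 and Tsr3, which modifies 18S rRNA, by 0.42 ± 0.11. Their limma adjusted p-values were 0.000224, 0.000628, 0.000662 and 0.00166. In total exons at 16 h they rose by 0.51 ± 0.12, 0.33 ± 0.07, 0.41 ± 0.06 and 0.26 ± 0.07.

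Of the 5 other matched symbols, 3 were called down at 4 h or 16 h in some table. The share of all genes with such a call was not counted. Nol3 (Entrez 78688, chromosome 8 from 107800347 to 107805839, plus strand, mm9), the apoptosis repressor with a caspase recruitment domain, had low values that fell. In labelled exons it had 37.8, 44.4 and 36 at 0 min, 20.8, 21.5 and 21.2 at 4 h and 15.8, 15 and 17.1 at 16 h, and both later groups lay below 0 min. It fell by 0.86 ± 0.31 (limma adjusted p = 0.0272) at 4 h, a call that ended without labelled replicate 1 at 4 h (0.0614), without labelled replicate 2 at 0 min (0.0909), without labelled replicate 2 at 4 h (0.0557) and without labelled replicate 3 at 4 h (0.0573). At 16 h it fell by 1.25 ± 0.31 (limma adjusted p = 0.00123). In total exons it had 130.4, 126 and 105 at 0 min, 87.2, 106 and 99 at 4 h, which overlapped, and 47.8, 60.2 and 36.1 at 16 h, where it fell by 1.33 ± 0.24 (limma adjusted p = 2.35e-05). Nol4 had 442, 411 and 411 in total exons at 0 min and 347, 309 and 337 at 16 h, groups that did not overlap, and fell by 0.35 ± 0.15 (limma adjusted p = 0.0473). That call ended with library sums as the scale (0.0755), without total replicate 1 at 0 min (0.124), without total replicate 1 at 16 h (0.0585), without total replicate 2 at 0 min (0.0723), without total replicate 2 at 16 h (0.138), without total replicate 3 at 0 min (0.0708) and without total replicate 3 at 16 h (0.0758). Nol4l was at the bottom of the range of levels, with overlapping groups in both exon tables at 16 h and a change of -0.28 ± 0.23 (limma adjusted p = 0.334) in total exons. In labelled introns Nol4l had 112, 94 and 135 at 0 min and 74.6, 85.5 and 45.7 at 16 h, without overlap, and fell by 0.75 ± 0.22 (limma adjusted p = 0.00584), and Nol4 fell by 0.41 ± 0.09 (limma adjusted p = 0.000266). Rrp8, a methyltransferase of 28S rRNA, rose by 0.39 ± 0.06 (limma adjusted p = 9.64e-06) in labelled exons at 4 h, and Nol7 by 0.26 ± 0.05 (limma adjusted p = 0.000223) in total exons at 16 h.

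Between 4 h and 16 h members fell in labelled introns and rose in total exons. In labelled introns 20 members were lower at 16 h than at 4 h and 0 higher (background 15.0% down and 13.6% up), with 1 up at an unadjusted p under 0.05 by limma. The median change was -0.16, and 13 of the 20 were still above 0 min at 16 h. In total exons 21 members were higher and 3 lower (background 16.1% and 19.3%), and in labelled exons 7 were higher and 4 lower (background 9.64% and 12.2%). In total introns 0 were higher and 11 lower (background 8.17% and 10.4%), with 1 up at an unadjusted p under 0.05 by limma. For 6 members, Bop1, Ddx18, Heatr1, Nop16, Rrp9 and Utp20, labelled introns fell while total exons rose. The share of all genes with both calls was not counted, so this overlap has no background. Bop1 fell by 0.45 ± 0.08 (limma adjusted p = 0.000102) in labelled introns and rose by 0.25 ± 0.05 (limma adjusted p = 0.000663) in total exons. Rrp9 fell by 0.37 ± 0.10 (limma adjusted p = 0.00563) and rose by 0.38 ± 0.07 (limma adjusted p = 7.29e-05).

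Ebna1bp2 had the largest late rise in total exons, 0.53 ± 0.07 (limma adjusted p = 4.56e-07), while its labelled introns had -0.18 ± 0.10 (limma adjusted p = 0.166). Rrp1b fell in labelled introns, labelled exons and total exons, by 0.31 ± 0.06 (limma adjusted p = 0.000445), 0.33 ± 0.08 (limma adjusted p = 0.00171) and 0.35 ± 0.08 (limma adjusted p = 0.000633), and the others that fell in total exons were Nol3 and Utp23. The count of 20 in labelled introns was 7 with library sums as the scale and 12 without labelled replicate 2 at 4 h. The count of 21 in total exons was 11 without total replicate 2 at 4 h. In labelled exons the count of 7 was 4 without any 1 of labelled replicate 3 at 4 h or replicate 3 at 16 h, and the count of 4 was 2 without labelled replicate 2 at 4 h.

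**Figure D5:**
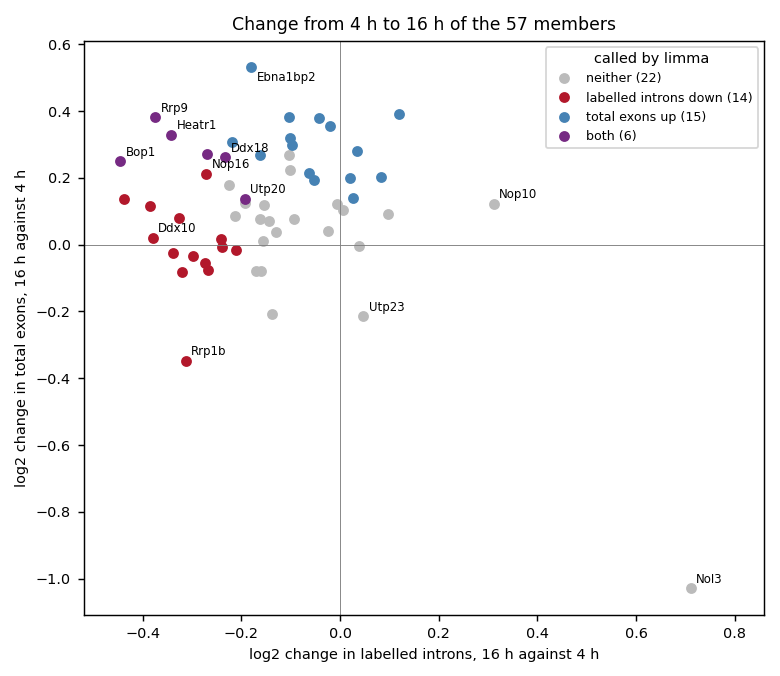
Log2 change from 4 h to 16 h in labelled introns (horizontal) against that in total exons (vertical), 1 point per member, coloured by the calls. The 20 members with a fall in labelled introns lie to the left, 6 of them also with a rise in total exons, and Nol3 stands alone at the lower right with low values in introns.

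A list of 77 other ribosome biogenesis factors outside the symbol rule, chosen with earlier results of these data known, was counted in the same way. In labelled introns at 20 min 60 rose and 1 fell (all genes: 16.7% up and 13.3% down), with a median of 0.37. In labelled exons 48 rose and 0 fell at 1 h (all genes: 13.53% and 9.77%), 57 rose and 2 fell at 4 h (19.5% and 18.7%) and 58 rose and 3 fell at 16 h (22.5% and 21.7%). In total exons 56 rose and 3 fell at 4 h (all genes: 19.7% and 19.5%), and 60 rose and 2 fell at 16 h (26.9% and 29.0%) with a median of 0.37. Rbm28, the counterpart of the yeast pre-60S factor Nop4, was highest at 16 h with 1.09, and the atypical kinase genes Riok3 and Riok2, of late pre-40S particles, were lowest and fell by 0.34 and 0.22. These genes were picked here after their values were seen, as the ends of the list.

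The members differ in gene structure. The 53 members with an mm9 gene model span 1344 to 149659 bases, with a median of 12870, and Ddx10 is the longest. Its labelled introns had a change of 0.16 ± 0.10 at 10 min without passing the test (limma adjusted p = 0.775), and rose by 0.57 ± 0.10 at 20 min, 0.93 ± 0.10 at 30 min and 1.20 ± 0.10 at 1 h, and stood at 0.34 ± 0.10 at 16 h. The next longest, Nol10 at 82097 bases and Utp20 at 80208, had smaller changes at 1 h, 0.32 and 0.18.

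Annotated snoRNAs lie on the same strand within the bounds of 6 of the 53 members, Dkc1, Gnl3, Ncl, Nop56, Nop58 and Tsr1. This is 11.3%, against 2.07% of 10431 genes of the tables with a single protein-coding model. The members hold 17 such snoRNAs in all. Whether each lies in an intron was not checked, and SNORA51, SNORD56 and Snord57 overlap annotated exons of Nop56. Whether the authors' intron or exon values of these genes include reads of the snoRNAs is not given in the sources used here. In labelled introns at 20 min these hosts had changes of 0.24 for Dkc1, 0.07 for Gnl3, 0.64 for Ncl, 0.46 for Nop56, 0.19 for Nop58 and 0.33 for Tsr1, against a median of 0.42 over all 57 members.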

How the data were processed

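Exon and intron values of the 57 members were analysed in 66 libraries of labelled or total RNA. Per the submitters' processing notes, TopHat2 2.0.8, TopHat and the mm9 build were used, without their roles; the counter, annotation and strand use were not given in the sources used here. Of the deposited tables, 4 are called counts by the authors but hold rescaled whole numbers, which were treated as a score without a count model, in place of the count test planned for raw counts. In 25 of the table columns some low whole numbers were nearly missing, as after rescaling. The 4 RPKM tables the authors deposited equal these values times 1 constant per gene to within 0.982%. Read depth is unknown, so no interval is given for levels. Groups and replicate numbers came from sample titles.

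Library factors were trimmed means within a table (30% of log ratios and 5% of levels trimmed, factors 0.9135 to 1.098). Genes that reached 10 in 3 or more libraries were tested on log2(value + 1) with limma 3.58.1 in R 4.3.3, 1 mean per time over the 33 libraries of a table, a variance trend, two-sided tests and Benjamini-Hochberg adjustment over all genes at 0.05. This scale understates changes of low genes. Log2 changes are given ± standard error. The labelled and total changes were compared in 1 fit over all 66 libraries, and the intron to exon ratio used a pseudocount of 2. The script was tested on simulated data. Members and lists were chosen with earlier results of these data known. Values in every library are given for the 3 called members with the largest rise and fall in the exon comparisons at 1 h, 4 h and 16 h, and for 8 genes fixed by name; up to 4 more per role are named by their p in labelled exons at 4 h. Comparisons at 10, 20 and 30 min and 8 h, of labelled introns at 16 h and from 4 h to 16 h, the orders of first calls, gene structure, their alternatives and those of the role groups were added after seeing the data. Gene positions are from the mm9 annotation, and promoter windows from RefSeq on GRCm38.p6.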

Additional observations from a re-analysis of the deposited data

Results flagged for a closer look

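The following members changed by unequal amounts in labelled and in total exons, as tested in 1 fit over all 66 libraries (limma, adjusted p under 0.05); values are the labelled minus the total log2 change. For Rrp9 the difference was 0.59 at 20 min, 0.80 at 30 min and 0.64 at 1 h. For Nop9 it was 0.45, 0.51 and 0.43 at these times and 0.40 at 1.5 h. For Bop1 it was 0.51 at 30 min and 0.53 at 1 h. For Utp18 it was 0.37 at 20 min and 0.41 at 30 min, and for Nol9 0.37 at 30 min.

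Values at 16 h also differed from those at 4 h, by limma. Both are times of treated cells, so that OHT and time in culture cannot be told apart in this difference. In labelled introns 20 members were lower (15.0% of all genes were), a count that was 7 with library sums as the scale and 12 without labelled replicate 2 at 4 h. In labelled exons 7 were higher and 4 lower, 12.3% and 7.02% of the members against 9.64% and 12.2% of all genes. In total exons 21 were higher and 3 lower (16.1% and 19.3%), and the 21 became 11 without total replicate 2 at 4 h.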

How the results depend on the processing

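For 26 counts of members, 386 alternatives were run: other scalings, pseudocounts and filters, RPKM values, only the groups compared, a replicate block and leaving out each library. Of these 348 stayed within 1.5 times the reported count. All 38 that moved were counts of 1 to 7 members, the 0 members down in total introns at 4 h, or the late rise in total exons. Members down became, in labelled exons at 4 h, 0 with a minimum value of 50; at 16 h, 0 with a minimum value of 50 and 2 with the replicate block. In labelled introns at 1 h they became 2 with RPKM plus 0.1, in total exons at 16 h 1 with library sums as the scale, and in total introns at 4 h 1 with library sums as the scale and 1 with only the groups compared in the fit. Rises of the intron to exon ratio at 4 h became 2 with library sums as the scale, 0 on the unscaled values, 2 with a minimum value of 50 and 0 with only the groups compared in the fit, and falls 0 on the unscaled values and 0 with only the groups compared in the fit. Leaving out single libraries gave 0 to 1 members down in labelled exons at 4 h, 1 to 2 at 16 h and 2 to 4 from 4 h to 16 h. It gave 0 to 1 down in labelled introns at 1 h and 1 to 3 at 4 h, 1 to 2 down in total exons at 16 h, 4 to 7 up in labelled and 11 to 22 up in total exons from 4 h to 16 h, and 0 to 1 rises and 0 to 1 falls of the ratio. For the 32 counts added after seeing the data, 33 of 480 alternatives moved, with values beside the counts given. The causes were not tested beyond the fewer genes or samples of an alternative.

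Libraries of the same replicate number deviated together only weakly. The correlation of deviations from the group means, each time against 0 min, had medians of 0.052 to 0.084 over the 4 tables. All 3 pairs were over 0.1 in 1 comparison, total exons at 4 h. Pairs of later times were not examined, so pairing is not excluded. With the replicate block, 46 members were up in labelled exons at 4 h (45 without), 46 in total exons at 4 h (42) and 51 at 16 h (50), and 2 were down in labelled exons at 16 h (1). It also gave 23 up in total exons at 1 h (18) and 10 up in labelled exons from 4 h to 16 h (7). For the 35 named members in 5 comparisons, 130 of 175 results were called, 21 of these lost the call under some alternative, and 0 reversed. Unknown read depth limits what can be said of the low values of Nol3, Nol4 and Nol4l.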
